A study of Mus musculus with 12 samples.

Results

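The cells described here are conventional dendritic cells of the mouse liver, taken as the barcodes that passed a gate on the transcripts of the MHC class II genes H2-Aa and H2-Ab1. A member had at least 5 UMIs (counted transcript molecules) of these 2 genes together, no UMI of Siglech (a plasmacytoid dendritic cell gene) or Cd79a (a B cell receptor chain), and under 5 UMIs of the complement genes C1qa, C1qb and C1qc, which mark macrophages. The gate held 1062 of 184493 barcodes that had at least 1000 UMIs and at most 15% mitochondrial UMIs, namely 256 of 113376 at the embryonic stage E16.5 and 806 of 71117 at P3, the third day after birth. H2-Aa, H2-Ab1 and the genes held down by the gate chose the members, so their levels are not results.

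Whole livers of Jag1+/+, Jag1Ndr/+ and Jag1Ndr/Ndr mice were profiled by 10x Genomics single-cell RNA sequencing, with 2 individuals labelled for each genotype and stage. All embryos and pups came from crosses between heterozygous parents. Ndr is the Nodder allele of the Notch ligand gene Jag1, a missense change, so that Jag1 transcripts do not check the genotype; they were at 0 to 4 UMIs in all members of a library together. Pups of the Jag1Ndr/Ndr genotype were recognised at P3 by jaundice, dead cells were removed with magnetic beads at both stages, and TrypLE was used in the digestion at E16.5 only. The deposited matrices held 9 distinct libraries. Of the 5 at E16.5, 1 matrix had been deposited under a wild-type and also under a heterozygous label and is called the shared library. The other 4 were Jag1+/+ replicate 1, Jag1Ndr/+ replicate 1 and the 2 Jag1Ndr/Ndr replicates. At P3, libraries A and B had conflicting genotype labels and were used as P3 samples of unclear genotype, library C carried the Jag1Ndr/Ndr label and library D the Jag1Ndr/+ label. Library C was what remained of a matrix after the barcodes of library A, which it also contained, were taken out. No member barcode occurred in more than 1 library at either stage, in all 36 pairs of libraries. For the pair of A and C this holds by construction, since the barcodes of A were taken out of C. Values per library are given in the order Jag1+/+ replicate 1, the shared library, Jag1Ndr/+ replicate 1, Jag1Ndr/Ndr replicates 1 and 2 at E16.5, and A, B, C and D at P3. Members had a median of 14922, 8289, 11607, 11049 and 12363 UMIs in the E16.5 libraries and 7308, 6644, 6048 and 4928 in the P3 libraries, and their summed UMIs ranged from 523018 to 776749 and from 1128083 to 2137197 per library. Levels are CPM, in which each gene's summed UMIs are scaled to the same total in every library, over the 22519 genes counted at both stages.

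Conventional dendritic cells capture antigen and present it to T cells. They arise in bone marrow, and before birth in the liver, from precursors that carry the cytokine receptor Flt3. Type 1 cells (cDC1) depend on the transcription factors Irf8 and Batf3, carry Clec9a and Xcr1, and load antigen of other cells on MHC class I. Type 2 cells (cDC2) carry Sirpa and Cd209a, depend more on Irf4 and Klf4, and in part on Notch2 signals, and present mainly on MHC class II. Class II molecules are assembled with the invariant chain Cd74, are loaded with peptide by H2-DM, and are transcribed under the coactivator Ciita.

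The label was checked against genes that the gate did not use. At least 1 UMI of Flt3 was found in 40% to 69.8% of members per library at E16.5 and in 41.5% to 64.2% after birth, against 1.66% to 3.27% and 0.825% to 1.94% of B cell-gated barcodes, whose median UMI counts were 7032 to 8570.5 and 2716 to 5510.5. Barcodes gated as monocytes (Csf1r and Ly6c2 present, class II under 5 UMIs), with medians of 13765 to 18508.5 and 7586 to 12431 UMIs, had Flt3 in 3.33% to 16% and 1.43% to 13%. Zbtb46, a transcription factor restricted to conventional dendritic cells among myeloid cells, was found in 13.2% to 28.6% of members at E16.5, in at most 23.8% at P3 (median 20.7%) and in 0.971% to 3.41% and 0.457% to 1.69% of monocyte-gated barcodes. Clec9a, a receptor for dead cells, was found in 35.8% to 54% and 57.1% to 67.0% of members and in at most 0.913% of monocyte-gated barcodes in any library. Other genes separated the gates less. Irf8 was found in 66.0% to 88.6% of members and 73.3% to 85.4% of monocyte-gated barcodes at E16.5. At P3 it was found in 88.4% to 94.6% and 76.7% to 85.3%. Csf1r, a gene of the monocyte gate, was found in 37.1% to 44.2% of members at E16.5 and 27.5% to 63.3% at P3. Xcr1 had no UMI in members of the shared library or Jag1Ndr/Ndr replicate 2. Flt3, Zbtb46 and Clec9a were thus found in members of every library, as a description and not a test, since the members were selected.

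Near the threshold, the 16 members with 5 or 6 class II UMIs at E16.5 had 686 CPM of Cd74 and 365 CPM of Irf8, the 58 barcodes just outside with 3 or 4 UMIs had 288 and 134 CPM, and the 240 members with 7 or more had 3370.0 and 653 CPM. At P3 these values were 1089 and 504 CPM just inside (28 barcodes), 327 and 90.5 CPM just outside (53 barcodes), and 13306 and 1847 CPM further inside (778 barcodes). The median class II count per member was 25, 20, 31, 47.5 and 30 UMIs at E16.5 and 60, 95, 65 and 53 at P3.

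Some members also carried RNA of other lineages. Clustering of the 1062 members gave 15 clusters, of which 1 with 15 members was led by Alb and Afp (hepatocyte-like, 7 of its 10 leading genes in the hepatocyte list, 13 from E16.5, median 27203 UMIs) and 1 with 67 members by Camp, Ngp and S100a9 (neutrophil-like, 6 of 10, 14 from E16.5). The summed level of the hepatocyte list in members was 3890.4 to 29614 CPM over the E16.5 libraries and 233 to 1519.9 CPM over the P3 libraries, and that of the erythroid list 131319 to 185406 and 28788 to 67600.2 CPM. In all other passing barcodes the same lists averaged 4649.8 and 1138 CPM, and 457561 and 213444 CPM. Between 2.67% and 20.9% of members at E16.5 and 3.24% to 9.17% at P3 had at least 2% of their UMIs on the hepatocyte and neutrophil lists together; these are called mixed members. The erythroid list was not part of this rule, and 3 further clusters with red cell genes among their leading genes were left unnamed: cluster 4 (Slc4a1, Tfrc and Hemgn, 30 members, all from E16.5), cluster 7 (Car1, Alad and Aqp1, 57 members, 3 from E16.5) and cluster 14 (Rsad2, Bpgm and Alas2, 41 members, all from P3). Cluster 15, with 74 members, all from P3, was led by the mast cell protease genes Mcpt4, Tpsb2 and Cma1, and held 39 cDC1-type barcodes. Its 10 leading genes also held the cDC1 genes Xcr1 and Ppt1, and Cxcl9, Cxcr3 and Irf7, and the cluster is left unnamed. Values without the mixed members are given for some results below, and the part of RNA of other lineages in the rest was not tested.

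The members made up a larger share of passing barcodes after birth. They were 0.227%, 0.364%, 0.183%, 0.272% and 0.132% of passing barcodes in the E16.5 libraries, from 35 to 75 members each. In the P3 libraries they were 1.12%, 1.05%, 1.20% and 1.17%, from 181 to 240 members each. The groups did not overlap: the mean was 1.14% ± 0.0666 (SD, n = 4) at P3 and 0.236% ± 0.0885 (SD, n = 5) at E16.5, a difference of 0.902 percentage points (two-sided exact permutation test, p = 0.0159, the smallest that splits of 5 and 4 libraries can give). With every barcode thinned to 1000 UMIs and the gate set at 2 class II UMIs, the difference was 1.13 points, again without overlap. The share is one of all barcodes loaded and depends on the other cells present; erythroid and hepatocyte RNA also moved with stage as given above. Digestion, 10x software version and stage cannot be told apart.

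**Figure D1:**
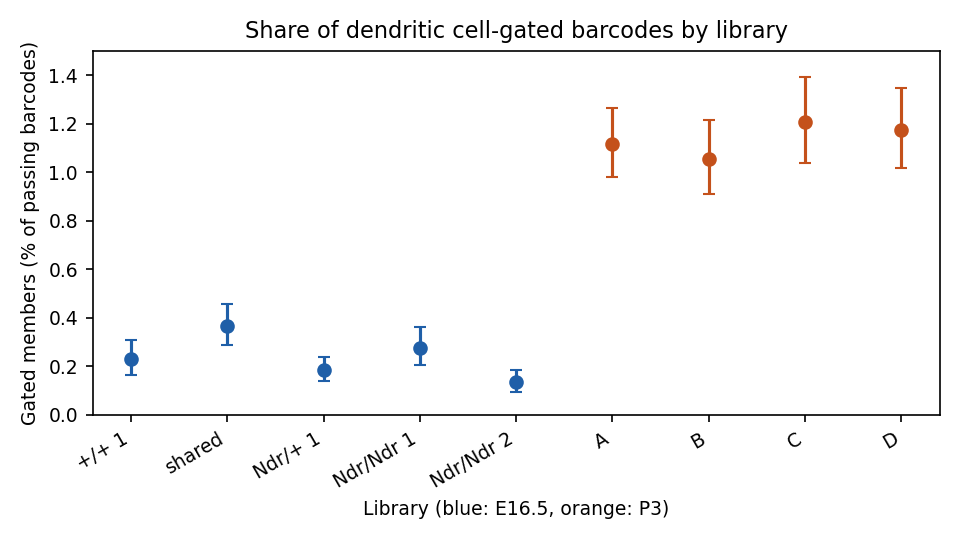
Share of passing barcodes that are gated members (vertical axis, percent) in each library (horizontal axis), with exact 95% binomial intervals that cover counting error only. All 4 P3 libraries (orange, 1.05% to 1.20%) lie above all 5 E16.5 libraries (blue, 0.132% to 0.364%).

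Among E16.5 libraries the share did not separate the genotypes. It averaged 0.202% ± 0.0990 (SD, n = 2) in Jag1Ndr/Ndr and 0.258% ± 0.0944 (SD, n = 3) in the other libraries (difference -0.0554 percentage points, two-sided exact permutation test, p = 0.6, where 10 splits cannot go below 0.2). Leaving out Jag1Ndr/Ndr replicate 2 turned the difference to 0.0146. At P3, libraries C and D gave 1.20% (95% exact binomial interval 1.04% to 1.39%) and 1.17% (1.02% to 1.35%), and these overlapping intervals cover counting error in 1 library each.

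Subsets were read from a second gate within the members. Type 1 (cDC1-type) barcodes had at least 2 UMIs of Xcr1 and Clec9a together, type 2 (cDC2-type) barcodes at least 2 UMIs of Cd209a, Clec10a and Mgl2, and mature-type barcodes at least 3 UMIs of Ccr7, Fscn1 and Ccl22, genes of dendritic cells that migrate to lymph nodes. The cDC1-type made up 37.2%, 30.7%, 28.3%, 50% and 40% of members in the E16.5 libraries and 39.2%, 43.2%, 48.1% and 45.5% in the P3 libraries. The cDC2-type made up 9.30%, 8%, 0%, 4% and 0% at E16.5 and 9.58%, 4.86%, 2.76% and 0% at P3. Library D held 0 cDC2-type barcodes of 200 members (95% exact binomial interval 0% to 1.83%), whereas library A held 23 of 240. Mature-type barcodes numbered 2 at E16.5 and 8 at P3, 3 members of library A met both the type 1 and the type 2 rule, and the rest met no rule, namely 44% to 71.7% at E16.5 and 48.1% to 53.5% in pups. As background, the Clec9a and Xcr1 rule was met by 0 monocyte-gated barcodes and, in a library, by at most 0.413% of B cell-gated, 3.33% of plasmacytoid-gated and 4.26% of macrophage-gated barcodes. Median depths over libraries were 4509 to 13686 UMIs in macrophage-gated barcodes, 7586 to 18508 in monocyte-gated ones and 4928 to 14922 in members. The type 2 rule was met by 3.20% to 10.0% of monocyte-gated barcodes and 6.67% to 33.3% of plasmacytoid-gated ones. The members' cDC2-type share was below that of monocyte-gated barcodes of the same library in 7 libraries. It was above it in Jag1+/+ replicate 1 (9.30%, 4 barcodes, 95% exact binomial interval 2.59% to 22.1%, against 4.85%) and in the shared library (8%, 6 barcodes, 2.99% to 16.6%, against 6.04%), with intervals that hold the monocyte value. It was therefore not read as a cDC2 share.

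The subset shares did not pass the test between stages with the gates as set. The cDC1-type share averaged 44.0% ± 3.77 at P3 (SD, n = 4) and 37.2% ± 8.57 at E16.5 (SD, n = 5), a difference of 6.76 percentage points (two-sided exact permutation test, p = 0.190, 0.310 after Benjamini-Hochberg adjustment over 3 subsets). The cDC2-type share differed by 0.0422 points (exact permutation p = 1) and the unassigned share by -7.45 points (exact permutation p = 0.206, adjusted 0.310). At a gate of 3 class II UMIs the cDC1-type and unassigned differences were 11.02 and -11.5 points (exact permutation p = 0.0476 and 0.0317, unadjusted). At E16.5 the cDC1-type share was 45% ± 7.07 (SD, n = 2) in Jag1Ndr/Ndr and 32.1% ± 4.61 (SD, n = 3) in the others; both homozygous libraries lay above the other 3, and the exact permutation p of 0.2 is the smallest this design allows (0.6 adjusted over 3 subsets). Depth could not be set equal for these shares: thinned to 1000 UMIs, the type 1 rule was met by 0 to 3 members in an E16.5 library and by 8 to 19 in a P3 library. Between 90.0% and 100% were then unassigned, so no difference was read from the thinned shares.

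**Figure D2:**
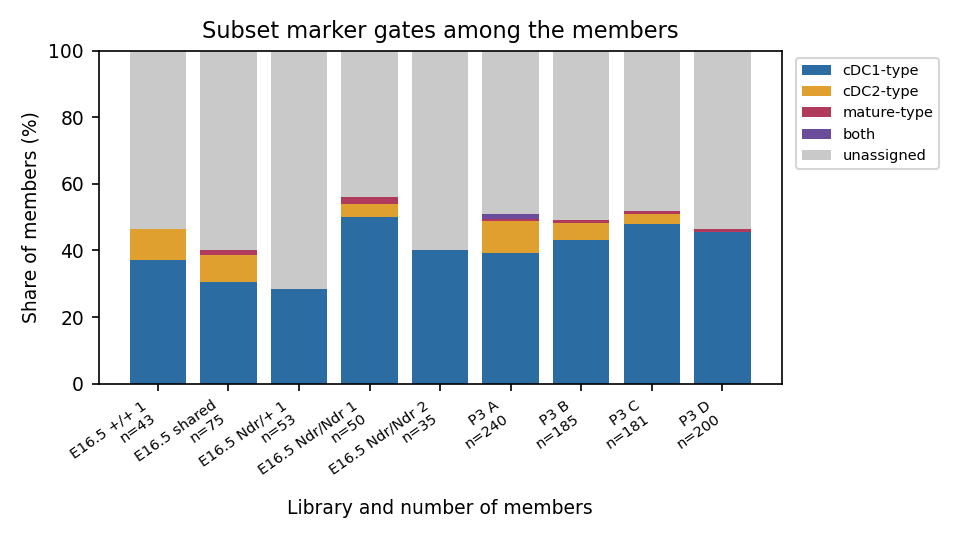
Share of members (vertical axis, percent) in each subset gate, stacked for each library (horizontal axis, with the number of members). The cDC1-type lies between 28.3% and 50% of members, and unassigned barcodes between 44% and 71.7%.

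The genes that the subset rules did not use also differed between the subsets. Pooled over libraries, Irf8 measured 1012, 20.4 and 460.3 CPM in cDC1-type, cDC2-type and unassigned members at E16.5, and 2284, 313 and 1501 CPM at P3. Cadm1, an adhesion molecule of cDC1, measured 283, 48.2 and 159 CPM in the same order at P3, and Naaa, a lysosomal hydrolase, 579.9, 45.1 and 289 CPM. Sirpa, the inhibitory receptor of cDC2, measured 9.71, 169 and 40.4 CPM, and the calcium-binding protein gene S100a4 6.35, 451 and 81.4 CPM. At P3 Sirpa was found in 58.4% to 72.2% of monocyte-gated barcodes and in 7.03% to 24.2% of members. It therefore does not tell cDC2-type barcodes from monocytes. Unassigned members lay between both types in these 5 genes at P3, but below both in others. Flt3 measured 120.2, 102 and 77.7 CPM in the same order, Cd74 15206, 14072 and 10206 CPM, and H2-Eb1 3380.3, 2913 and 2083 CPM. Cluster 13, with 135 members, all from P3, was led by Fndc5, Irf7 and Ppt1 and held 90 cDC1-type barcodes. Its 10 leading genes also held Xcr1, a gene of the type 1 rule, and the gate gene H2-Ab1. Cluster 9, with 67 members, all from P3, was led by Cd209a, S100a4 and Clec4a3. It held 20 cDC2-type barcodes, with 38 of its members from library A. Cd209a is a gene of the type 2 rule, so these matches are set in part by the rules. Clusters were not corrected for library, and cluster 10 had 83 of its 89 members from library A. Cluster 12, with 101 members, also all from P3, was led by Ccl5, Ccr7 and Traf1 (7 of its 10 leading genes in the mature or migratory list). It held 34 cDC1-type, 62 unassigned and 3 mature-type barcodes and is left unnamed. Cluster 1, with 75 members of which 72 were from E16.5, was led by Hpgd, Ccl3 and Cebpb and also by the connective tissue genes Sparc, Col3a1 and Col1a1. These are descriptions of selected cells, with 12 and 37 cDC2-type cells at the 2 stages, and were not tested.

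Between E16.5 and P3 the summed transcriptome of the members changed widely, with most class II genes and cDC1 genes higher after birth and the chemokine genes Ccl3 and Ccl4 lower. In edgeR's quasi-likelihood test over 5 and 4 libraries, 2341 of 7073 tested genes differed at an adjusted p under 0.05 (33.1%), 1109 of them higher at P3 (15.7%) and 1232 lower (17.4%), and the library ranges of 2049 genes (29%) did not overlap. The median log2 fold change of all tested genes was 0.02. Without scaling for composition it was 0.19, with 1685 genes higher and 922 lower, and all fold changes given here are relative to the scaling. Among cDC1-type members alone, 1090 of 4710 tested genes differed (23.1%). Of these 4710 genes, 1707 were called over all members and 1029 in both fits, all with the same direction. The cDC1-type members are part of the members, so the fits share cells.

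Most genes of the class II pathway were higher after birth. Of 17 listed genes, 15 were in both gene tables, and 12 of these passed the filter on low counts once H2-Aa and H2-Ab1 were set aside. At P3, 10 of the 12 were higher and 2 were lower, against 15.7% and 17.4% of all tested genes, with a median log2 fold change of 1.11 (0.02 over all genes). The counts were 9 to 10 higher and 2 lower when any 1 library was left out, 9 and 2 of 11 at a gate of 10 UMIs (15.8% and 17.6% of all genes in that fit, 33.4% together), and 9 and 2 of 11 in cDC1-type members alone (10.3% and 12.8%, median 1.24). The gate asks for class II transcripts at both stages and members were shallower at P3, and how far this moved linked class II genes was not tested beyond these fits. The list also rose outside the members. In monocyte-gated barcodes, 7 of its 9 tested genes were higher and 2 lower, with a median of 0.85 (0.01 over all genes). In that fit 4770 of 9891 tested genes were called in either direction. In all other passing barcodes the summed list, gate genes included, averaged 164 CPM at E16.5 and 690 CPM at P3.

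Promoter sequence of 2 class II genes is shown because class II genes are known to share the SXY promoter module, which binds the complex that recruits Ciita. In the 150 bases before each RefSeq gene start (GRCm38.p6), the Y box core TGATTGG, an inverted CCAAT box, was searched on both strands, as was GATGATG, letters that span the border of the X boxes. Gene positions given below come from another annotation. By that annotation the window of H2-DMb1 (chr17:34153041-34153190) overlaps the gene. H2-Aa (chr17:34287824-34287973, minus strand) is a gate gene with TGATTGG starting 50 bases before the start. H2-Eb1 (chr17:34305717-34305866, plus strand) has TGATTGG at 61 and GATGATG at 85 bases before the start. Capitals mark these letters.
H2-Aa: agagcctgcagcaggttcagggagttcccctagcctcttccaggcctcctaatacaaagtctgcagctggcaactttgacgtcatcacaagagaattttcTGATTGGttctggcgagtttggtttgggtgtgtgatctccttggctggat
H2-Eb1: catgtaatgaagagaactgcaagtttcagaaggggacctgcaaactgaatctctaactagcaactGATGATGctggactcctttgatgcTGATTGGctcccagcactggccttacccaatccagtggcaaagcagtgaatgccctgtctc
TGATTGG lay in this window in 7 of the 13 listed class II genes that could be matched and in 5.71% of 32851 promoters, and both letter strings lay in 3 of the 13 (H2-Eb1, H2-DMb1 and H2-DMb2) and in 0.0974% of all promoters. The strings were chosen from what is known of class II promoters, so the match is a description and supports nothing about these data.

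Among the chains and their loading factors, Cd74 measured 2343, 2917, 2979, 5230.3 and 2869.9 CPM at E16.5 and 13172, 14399, 14334 and 7748 CPM at P3. Every P3 library was above every E16.5 library, with Jag1Ndr/Ndr replicate 1 the highest of the embryos and library D the lowest of the pups (log2 fold change 1.74, SE 0.26, adjusted p = 0.000307). The beta chain gene H2-Eb1 (chromosome 17, 34305867 to 34316674, plus strand) measured 551, 866, 1083, 1420.2 and 701 CPM at E16.5 and 2028, 3136, 3128 and 3034 CPM at P3, again without overlap (log2 fold change 1.42, SE 0.26, adjusted p = 0.00119). H2-DMb1, a chain of the peptide exchange factor (chromosome 17, 34153072 to 34160230, plus strand), measured 92.7, 123, 148, 155 and 109 CPM at E16.5 and 467, 598, 604 and 560.4 CPM at P3, and its lowest P3 value was over the highest E16.5 value (log2 fold change 1.96, SE 0.18, adjusted p = 1.61e-05). H2-DMa, the alpha chain it pairs with, had a log2 fold change of 1.00 ± 0.17 (SE), and H2-DMb2, the other beta chain, 1.49 ± 0.28. H2-Oa, a chain of the inhibitor of H2-DM, had 0.91 ± 0.22.

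Regulators and proteases of the pathway did not all move one way. Ciita (chromosome 16, 10480059 to 10528418, plus strand) measured 40.5, 96.3, 33.3, 73.5 and 79.7 CPM at E16.5 and 162, 256, 312 and 227 CPM at P3, without overlap (log2 fold change 1.72, SE 0.27, adjusted p = 0.000387). March1, a ubiquitin ligase that lowers surface class II, had a log2 fold change of 1.13 ± 0.22, and the protease gene Ctss, which trims the invariant chain in dendritic cells, 0.74 ± 0.19. The 2 genes that were lower were the lysosomal proteases Ctsl and Lgmn. Ctsl measured 97.9, 40.0, 145, 96.5 and 87.4 CPM at E16.5 and 36.0, 20.0, 26.3 and 26.6 CPM at P3, lower in all P3 libraries than in any embryo (log2 fold change -1.95, SE 0.32, adjusted p = 0.000619), but without the mixed members its log2 fold change was -0.41 (adjusted p = 0.260). Lgmn had -0.97 ± 0.25 (adjusted p = 0.0101), and -1.01 without the mixed members (adjusted p = 0.00768).

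**Figure D3:**
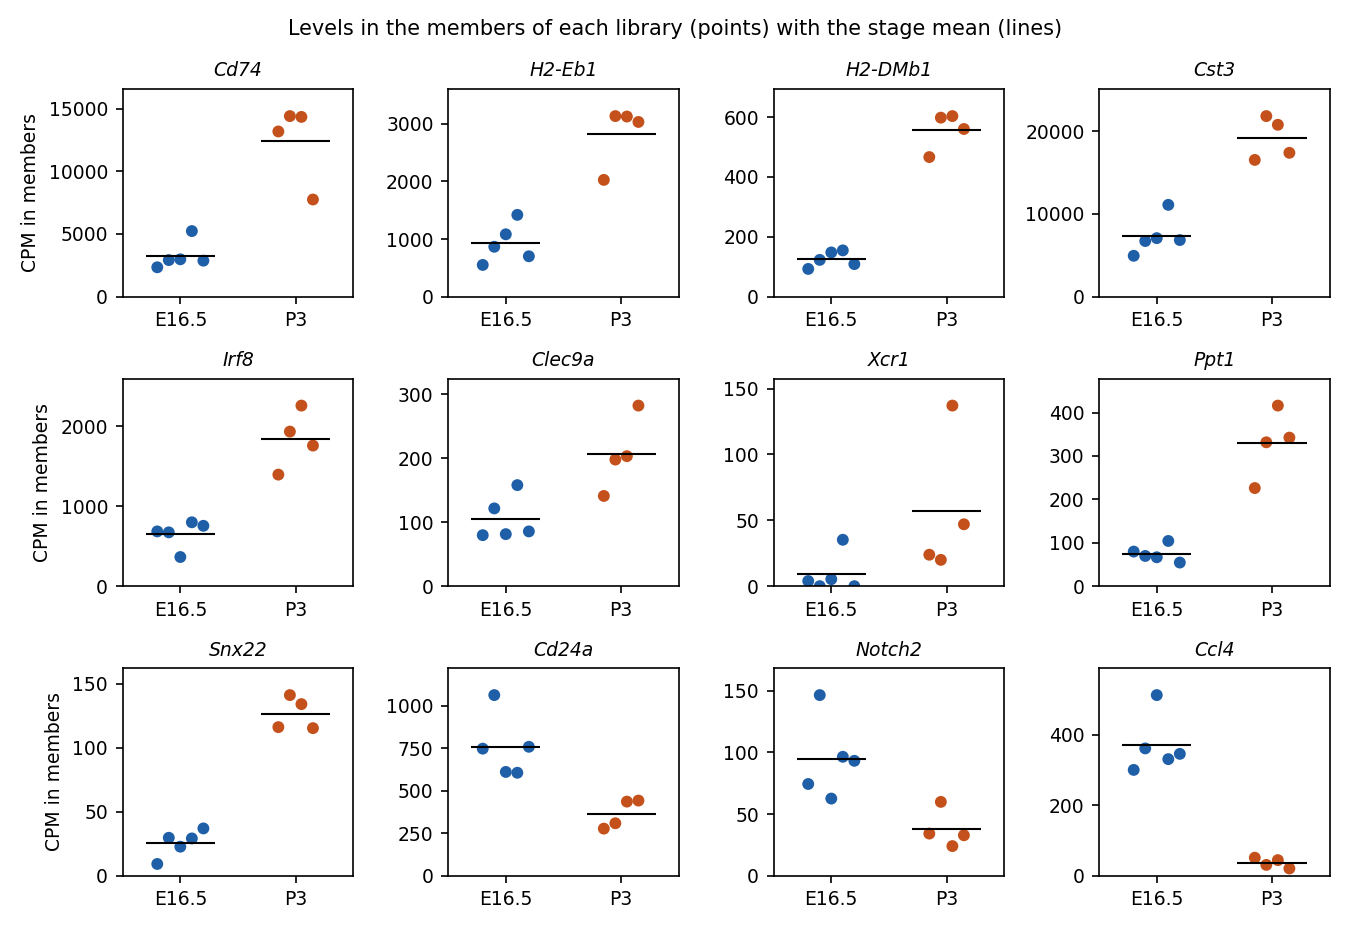
CPM in the summed members (vertical axes, each from 0 on its own linear scale) of the 5 E16.5 and 4 P3 libraries (points) for 12 genes, with lines at the stage means. Cd74, H2-Eb1, H2-DMb1, Cst3, Irf8, Ppt1 and Snx22 lie higher in every P3 library, Cd24a, Notch2 and Ccl4 lie lower, and Clec9a and Xcr1 overlap between stages.

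Genes of cDC1 were higher after birth. All 15 listed genes passed the filter, 11 were higher at P3 (15.7% of all tested genes) and 0 lower in edgeR's test (17.4% of all; 0 at an unadjusted p under 0.05, 0 by DESeq2), with a median log2 fold change of 1.09. In cDC1-type members alone, with the gate genes Xcr1 and Clec9a set aside, 7 of 13 were higher and 0 lower in edgeR's test, against 10.3% and 12.8% of all genes in that fit (median 0.75), and over all members leaving out any 1 library gave 9 to 13 higher. Irf8, the transcription factor that sets the cDC1 fate (chromosome 8, 120736358 to 120756694, plus strand), measured 686, 674, 365, 799.7 and 756 CPM at E16.5 and 1397, 1936, 2261 and 1760.2 CPM at P3, with the lowest pup library over the highest embryo library (log2 fold change 1.31, SE 0.21, adjusted p = 0.000511). Its partner Batf3 measured 116, 125.9, 108, 144 and 115 CPM at E16.5 and 195, 182, 233 and 184 CPM at P3, a smaller difference (log2 fold change 0.53, SE 0.14, adjusted p = 0.0117) that missed the threshold without library C (log2 fold change 0.45, adjusted p = 0.0511).

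Other genes of the cDC1 list were called higher as well. Snx22, a sorting nexin (chromosome 9, 66065176 to 66069719, minus strand), measured 9.14, 29.6, 22.6, 29.1 and 36.9 CPM at E16.5 and 116, 141, 134 and 115 CPM at P3, so that every pup was above every embryo (log2 fold change 2.17, SE 0.26, adjusted p = 8.65e-05). Ppt1, a lysosomal thioesterase (chromosome 4, 122836242 to 122859175, plus strand), measured 79.7, 69.6, 66.6, 104 and 54.4 CPM at E16.5 and 226, 331, 416 and 342 CPM at P3, also without overlap (log2 fold change 1.94, SE 0.20, adjusted p = 3.1e-05). Rab7b, a small GTPase of late endosomes, had a log2 fold change of 1.36 ± 0.22, Wdfy4, a factor needed for cross-presentation, 1.04 ± 0.25, and Tlr3, the endosomal sensor of double-stranded RNA, 1.09 ± 0.24.

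The surface receptors that define the type were less even. Clec9a (chromosome 6, 129408862 to 129424763, plus strand) measured 79.7, 121, 81.2, 158 and 85.5 CPM at E16.5 and 141, 198, 203 and 282 CPM at P3, and library A lay within the range of the embryos. Its difference (log2 fold change 0.78, SE 0.23, adjusted p = 0.0184) missed the threshold without Jag1+/+ replicate 1, Jag1Ndr/Ndr replicate 2 or library D (log2 fold change 0.60 to 0.69, adjusted p = 0.0558 to 0.0689). The chemokine receptor Xcr1 (chromosome 9, 123852315 to 123862029, minus strand) measured 3.92, 0, 5.33, 35.2 and 0 CPM at E16.5 and 23.9, 20.0, 137 and 47.0 CPM at P3, where a count of 0 allows up to 4.44 and 5.83 CPM in the 2 embryo libraries without a UMI. Library C was the highest, and Jag1Ndr/Ndr replicate 1 was above libraries A and B. The Xcr1 difference (log2 fold change 2.42, SE 0.80, adjusted p = 0.0326) was 4.19 without Jag1Ndr/Ndr replicate 1, and missed the threshold without Jag1+/+ replicate 1, the shared library, Jag1Ndr/+ replicate 1, Jag1Ndr/Ndr replicate 2 or library C (log2 fold change 1.52 to 2.27, adjusted p = 0.0671 to 0.149). Cadm1 and Id2 were near level, at 0.06 ± 0.17 and 0.04 ± 0.18 (adjusted p = 0.810 and 0.876).

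Of the 9 genes shared by conventional dendritic cells at large, 6 were higher and 1 lower (median 1.11), against 15.7% and 17.4% of all tested genes, among them the class II genes H2-Eb1, H2-DMb1 and Ciita given above. Cst3, the protease inhibitor cystatin C and one of the most used markers of these cells, measured 4942, 6726, 7076, 11099.5 and 6844 CPM at E16.5 and 16534, 21832, 20779 and 17392 CPM at P3, without overlap (log2 fold change 1.19, SE 0.22, adjusted p = 0.00113). Cd24a, a surface glycoprotein, measured 747, 1062, 610.0, 605 and 758 CPM at E16.5 and 277, 308, 435 and 442 CPM at P3 and was the gene of this list that fell (log2 fold change -1.23, SE 0.19, adjusted p = 0.000395). Flt3 measured 77.0, 124, 46.6, 55.2 and 40.8 CPM at E16.5 and 113, 79.2, 98.4 and 101 CPM at P3, with pups inside the range of embryos (log2 fold change 0.35, SE 0.25, adjusted p = 0.301), and Zbtb46 also missed the threshold (log2 fold change 0.54, SE 0.28, adjusted p = 0.150). Itgax, the integrin CD11c, had 1.11 ± 0.36 (adjusted p = 0.0313) and missed the threshold without Jag1+/+ replicate 1, Jag1Ndr/+ replicate 1, Jag1Ndr/Ndr replicate 1, library A or library C (log2 fold change 0.83 to 1.06, adjusted p = 0.0571 to 0.106).

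No gene of the cDC2 or mature dendritic cell lists was called higher. Of 18 cDC2 genes, 11 passed the filter and 0 were higher in edgeR's test (1 at an unadjusted p under 0.05, 0 by DESeq2), while 2 were lower, Klf4 (-1.10 ± 0.28, adjusted p = 0.00916) and Clec12a (-0.57 ± 0.14, adjusted p = 0.00904), with a median of -0.55. The share that was lower was near the 17.4% of all tested genes (15.7% were higher). Without library A 5 were lower, and without the shared library, library B or library D 1 was higher. Klf4 measured 120.1, 169, 104, 68.9 and 155 CPM at E16.5 and 102, 48.6, 51.1 and 50.5 CPM at P3, where library A lay among the embryos. In cDC1-type members alone Clec12a was at 0.09. Of 20 mature or migratory genes, 5 passed the filter and 0 were called in edgeR's test (median -0.12). At an unadjusted p under 0.05, 1 was higher, and 0 were called by DESeq2. With 1 library left out, 0 to 2 were higher, and 1 was lower without library B. Of 11 costimulation genes 2 passed. The checkpoint receptor gene Havcr2 (TIM-3), carried by cDC1, was higher (log2 fold change 1.42, SE 0.25, adjusted p = 0.000893), and Cd86, a ligand of CD28, was not called (log2 fold change 0.35, SE 0.25, adjusted p = 0.301). The markers Sirpa and Cd209a had -0.93 ± 0.36 and 0.97 ± 0.76 (adjusted p = 0.0602 and 0.344).

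**Figure D4:**
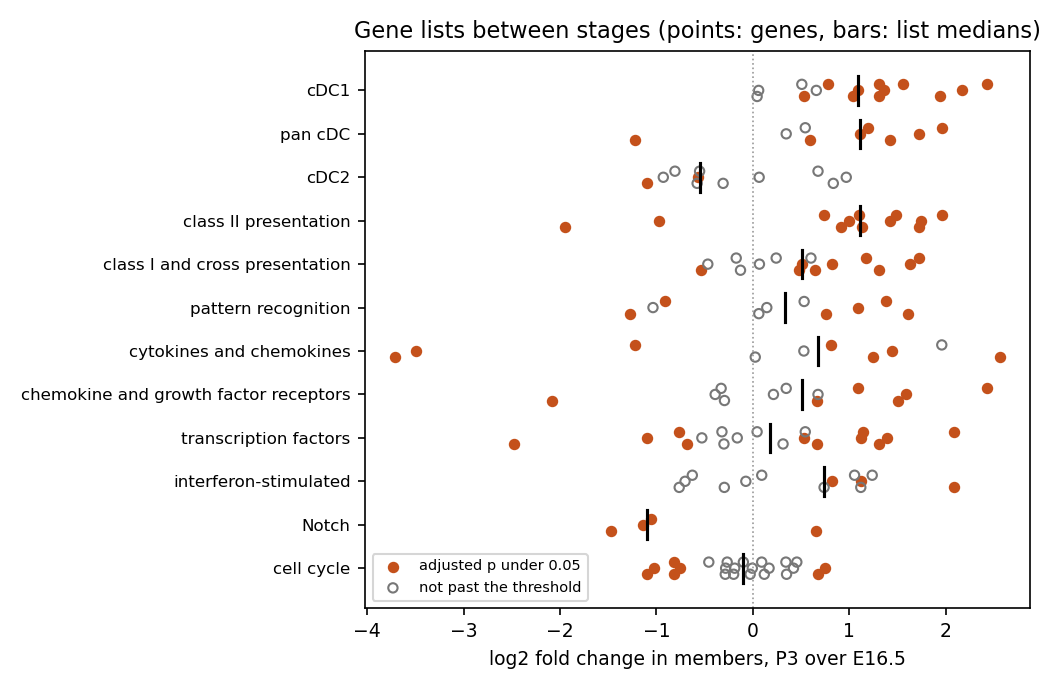
log2 fold change from E16.5 to P3 in the summed members (horizontal axis) for the tested genes of 12 lists (rows). Filled points passed an adjusted p of 0.05, open points did not, and bars mark list medians, which lie at 1.09 for cDC1, 1.11 for class II presentation (gate genes left out) and -0.55 for cDC2 genes.

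MHC class I genes rose in part. Of 15 genes of class I and cross presentation, 8 were higher and 1 lower, against 15.7% and 17.4% of all tested genes, with a median of 0.51, and 0 were lower by DESeq2 or without Jag1+/+ replicate 1, Jag1Ndr/Ndr replicate 1, library B, library C or library D. The heavy chain gene H2-K1 measured 118, 120.0, 132, 193 and 81.6 CPM at E16.5 and 256, 562, 576 and 433 CPM at P3, without overlap (log2 fold change 1.63, SE 0.26, adjusted p = 0.000472). The peptide transporter Tap1 had 1.72 ± 0.28, the immunoproteasome subunits Psmb8 and Psmb10 1.3 ± 0.21 and 1.17 ± 0.22, and the chaperone Calr 0.65 ± 0.14. B2m, the light chain, was not called (-0.47 ± 0.20, adjusted p = 0.0814), nor were H2-D1 (0.60 ± 0.24) and Psmb9 (0.24 ± 0.20). H2-K1 and H2-D1 are close in sequence, and how reads that fit both were counted is not given in the sources used here, so the split between them is uncertain.

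Of 22 pattern recognition genes, 21 were in both tables and 10 passed the filter, of which 4 were higher and 2 lower (median 0.34; 15.7% and 17.4% of all tested genes), or 1 lower without Jag1Ndr/Ndr replicate 1 or 2, library B or library D. Tlr11 and Tlr12, a pair of endosomal receptors for protozoan profilin that cDC1 carry, had 1.38 ± 0.25 and 1.61 ± 0.35 (adjusted p = 0.00104 and 0.00332). Tlr11 measured 18.3, 16.3, 12.0, 24.5 and 25.3 CPM at E16.5 and 36.5, 63.9, 68.2 and 56.8 CPM at P3, with every pup above the embryos. Tlr2, a surface receptor for lipoproteins, was lower (log2 fold change -1.28, SE 0.26, adjusted p = 0.00245).

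The chemokine genes Ccl3 and Ccl4, which draw in T cells and monocytes, had the lowest fold changes of the cytokine and chemokine list. Ccl4 (chromosome 11, 83662584 to 83664683, plus strand) measured 300.3, 361, 513, 331 and 346 CPM at E16.5 and 51.0, 30.6, 44.2 and 20.4 CPM at P3 (log2 fold change -3.49, SE 0.28, adjusted p = 4.84e-06). Ccl3 (chromosome 11, 83647844 to 83649355, minus strand) measured 199.8, 166, 248, 173 and 165 CPM at E16.5 and 22.5, 18.6, 14.7 and 7.09 CPM at P3 (log2 fold change -3.71, SE 0.28, adjusted p = 2.64e-06). All pups were below all embryos for both, at about the same ratio in cDC1-type members alone (-3.91 and -3.88) and without mixed members (-3.72 and -4.01). In the list of 21 cytokines and chemokines as a whole, 10 passed the filter, 4 were higher and 3 lower (median 0.67), against 15.7% and 17.4% of all tested genes. Cxcl16, a membrane-bound chemokine, and Tgfb1 were among the higher (1.45 ± 0.24 and 1.25 ± 0.24). Cxcl9, an interferon gamma-induced ligand of Cxcr3, had 2.56 ± 0.71 (adjusted p = 0.0143), or 5.52 without Jag1Ndr/Ndr replicate 1, and its receptor gene Cxcr3 had 1.51 ± 0.29 (adjusted p = 0.00176).

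Of 20 receptors for chemokines and growth factors, 12 passed the filter, 5 were higher and 1 lower (median 0.51), against 15.7% and 17.4% of all tested genes, with 2 lower without Jag1+/+ replicate 1 and 3 higher when Jag1+/+ replicate 1, Jag1Ndr/Ndr replicate 2, library A or library C was left out. Cxcr4, which holds cells in the marrow and fetal liver niche, measured 88.8, 193, 77.2, 112 and 87.4 CPM at E16.5 and 69.3, 5.32, 13.9 and 20.4 CPM at P3 and fell (log2 fold change -2.09, SE 0.52, adjusted p = 0.00766), with a log2 fold change of -3.31 without library A. Il3ra, the receptor chain for interleukin 3, had 1.59 ± 0.35. Csf2ra, the GM-CSF receptor chain, had 1.09 ± 0.32 (adjusted p = 0.0178), and missed the threshold without library A or library B (log2 fold change 0.79 to 0.91, adjusted p = 0.0530 to 0.0704).

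Among 22 transcription factors, 18 passed the filter, 7 were higher and 4 lower (median 0.18), or 2 lower without library C. Of all tested genes 15.7% were higher and 17.4%, a share near that of the list, were lower. Spi1 (PU.1), the myeloid master regulator, measured 151, 166, 139.8, 184 and 181 CPM at E16.5 and 484, 481, 574 and 409 CPM at P3, without overlap (log2 fold change 1.39, SE 0.15, adjusted p = 5.01e-05). Irf1, an interferon regulatory factor, had 1.14 ± 0.27. Irf7 measured 20.9, 19.3, 29.3, 147 and 23.3 CPM at E16.5 and 137, 252, 375 and 176 CPM at P3 (log2 fold change 2.09, SE 0.52, adjusted p = 0.00769), where Jag1Ndr/Ndr replicate 1 lay above library A, and had 3.14 without that embryo library. Cebpb, a factor of inflammatory and emergency myeloid genes, fell (log2 fold change -2.48, SE 0.46, adjusted p = 0.00129), from 231, 222, 310.3, 262 and 159 CPM to 112, 20.6, 28.7 and 21.3 CPM, with library A the highest of the pups. Of 18 interferon-stimulated genes, 17 were in both tables, 13 passed the filter and 3 were higher (median 0.74), a share near the 15.7% of all tested genes. Without Jag1Ndr/Ndr replicate 1, 7 were higher.

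The receptor genes Notch1 and Notch2 were lower after birth. Of 15 listed Notch genes, 4 passed the filter, of which 3 were lower and 1 higher (median -1.10), against 17.4% and 15.7% of all tested genes. Notch2, the receptor linked to cDC2 (chromosome 3, 98013527 to 98150361, plus strand), measured 74.4, 147, 62.6, 96.5 and 93.3 CPM at E16.5 and 34.2, 59.9, 24.0 and 32.8 CPM at P3, and pups lay below embryos without overlap (log2 fold change -1.47, SE 0.28, adjusted p = 0.00149). Notch1 had -1.06 ± 0.30 and Adam10, the protease that cleaves ligand-bound receptors, -1.14 ± 0.22. Rbpj, the nuclear effector of the pathway, was higher (log2 fold change 0.65, SE 0.19, adjusted p = 0.0189) but missed the threshold without Jag1+/+ replicate 1, Jag1Ndr/Ndr replicate 2 or library B (log2 fold change 0.49 to 0.60, adjusted p = 0.0524 to 0.0778).

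Precursor and cell cycle genes gave no single direction, and their counts were near or below those of all tested genes. Of 23 cell cycle genes, 5 were lower and 2 higher (median -0.10), against 17.4% and 15.7% of all tested genes, or 0 to 1 higher without Jag1Ndr/Ndr replicate 1 or 2, library C or library D. The lower ones were Hmgb2 (-1.02 ± 0.21), Cdk1 (-1.09 ± 0.27), Rrm2 (-0.82 ± 0.16), Ube2c (-0.82 ± 0.19) and Mcm2 (-0.76 ± 0.22). At least 1 UMI of the proliferation gene Mki67 was found in 94% to 100% of members at E16.5 and 37.3% to 51.5% at P3. Monocyte-gated barcodes had 97.0% to 99.5% and 78.9% to 84.9%, and B cell-gated ones 92.6% to 97.1% and 40.6% to 76.9%. Depth was lower at P3, and these detection shares were not tested. Of 13 precursor genes, 9 passed the filter with 1 higher and 1 lower (median -0.54). Of these, 0 were lower without Jag1+/+ replicate 1, Jag1Ndr/Ndr replicate 2, library A or library C, 3 were lower without Jag1Ndr/+ replicate 1, and 2 were higher without the shared library. Ly6c2, a monocyte and precursor antigen, was the higher one (log2 fold change 1.56, SE 0.26, adjusted p = 0.000621). Of 10 fetal genes, 9 were in both tables and 4 passed the filter, with 3 lower and 1 higher (median -2.95; 17.4% and 15.7% of all tested genes), or 5 lower without any 1 of the P3 libraries. The imprinted gene Peg3 had -3.11 ± 0.48, the RNA-binding protein gene Igf2bp1 -2.80 ± 0.53, and Dlk1, which hepatoblasts also express, -5.68 ± 0.87. Dlk1 had -10.34 without library A, the only P3 library with Dlk1 UMIs, a fitted value that is no bound. The gene of the list that was higher was Igf2bp3 (0.49 ± 0.16, adjusted p = 0.0343), which kept the call only without Jag1Ndr/+ replicate 1 or library B. Without the mixed members Igf2bp3 alone of the fetal list passed the filter on low counts.

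Hepatocyte and erythroid genes in the members also differed between the stages. All 8 hepatocyte genes (median -3.59) and 7 of 8 erythroid genes (median -1.74) were lower at P3, against 17.4% of all tested genes (15.7% were higher). Without the mixed members 5 of 8 hepatocyte genes (median -1.68) and 8 of 8 erythroid genes (median -1.93) were lower, against 17.7% of all genes in that fit. Of the neutrophil list 1 of 9 was higher (median 0.42), and of the monocyte list 1 of 8 was higher and 1 lower (median -0.02), near or below the shares of all tested genes. The neutrophil count was 3 higher without Jag1+/+ replicate 1, 2 without library B, 0 without Jag1Ndr/Ndr replicate 2, library A or library C, and 0 higher and 1 lower without Jag1Ndr/+ replicate 1. The monocyte count was 2 higher without the shared library or library B, and 2 lower without library A. In the plasmacytoid list 3 of 9 passed and 2 were lower (median -0.77), or 1 without Jag1Ndr/Ndr replicate 1 and 0 without library C, in the macrophage list 3 of 10 passed and 1 was lower (median -0.37; 1 was higher without Jag1Ndr/+ replicate 1), and in the B cell list 2 of 9 passed and 1 was higher (median 0.49). From the lymphoid list 1 of 9 genes passed and from the megakaryocyte list 1 of 4, and neither was called (1 lymphoid gene was higher without library D). The endothelial, mesenchymal and basophil lists had no gene past the filter.

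Among all genes called between stages without overlap, with at least 50 CPM in the higher stage and more in members than in other barcodes, 563 were higher and 238 lower. The 15 with the highest fold change included Snx22, H2-DMb1, Ppt1, Cd74 and Ciita. Fndc5, the precursor of irisin, rose from 2.61, 2.96, 4.0, 9.19 and 1.94 CPM to 22.9, 53.2, 82.9 and 65.6 CPM (log2 fold change 3.50, SE 0.46, adjusted p = 0.000139), with 0.306 and 1.26 CPM in all other passing barcodes. Ppp1r14a, an inhibitor of myosin phosphatase, rose (log2 fold change 2.45, SE 0.31, adjusted p = 0.000111) and had 0.980 and 3.22 CPM in the others, and the major vault protein gene Mvp had 1.80 ± 0.27. Ifi202b, an interferon-inducible DNA sensor, had 3.01 ± 0.54 and Ndfip1, an adaptor of ubiquitin ligases, 2.16 ± 0.18. Both also rose in monocyte-gated barcodes, by 1.91 and 1.94. Their differences between members and monocytes were 1.11 and 0.24 (edgeR's test of the difference, adjusted p = 0.0833 and 0.549). Timm23 (5.54 ± 0.26), Pik3ap1 (3.21 ± 0.31), Ccdc85b (3.03 ± 0.27), BC004004 (2.79 ± 0.49) and Rpl9-ps6 (2.57 ± 0.66) completed the 15, and Rpl9-ps6, which had 1.40 without library A, is a pseudogene whose reads may belong to Rpl9. These 5 rose alike in monocyte-gated barcodes (5.97, 3.21, 3.06, 2.92 and 2.48), and the gene tables and software versions of the stages differed, which cannot be told apart from stage.

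The 15 with the lowest fold change included Alb, Afp and other genes that the liver expresses. Alb, the albumin gene, measured 9423, 1485, 11024, 7796 and 6826 CPM at E16.5 and 150.2, 67.9, 33.3 and 249.2 CPM at P3 (log2 fold change -6.07, SE 0.70, adjusted p = 6.34e-05), Afp, the fetal counterpart of albumin, had -5.67 ± 0.77, Ambp -4.58 ± 0.64, Itih2 -4.71 ± 0.60, Fga -4.49 ± 0.58, A2m -7.50 ± 0.99, Spp2 -4.50 ± 0.68, Rbp2 -5.71 ± 0.81, Spink1 -9.05 ± 0.72 and Serpinf2 -4.56 ± 0.59. Serpina6, a steroid-binding globulin gene, measured 162, 44.4, 281, 119 and 54.4 CPM at E16.5 and was at 0 in all 4 P3 libraries. The other 4 were Ptp4a1 (-6.97 ± 0.42, -6.40 in monocyte-gated barcodes), Dlk1, the growth inhibitor Cdkn1c (-4.60 ± 0.60) and Bex1 (-4.67 ± 0.57). Another gene entry named Ptp4a1 lies at the same position on chromosome 1. The gene tables of the stages differed, which cannot be told apart from stage. The summed hepatocyte list was lower too, at the levels given above. Without the mixed members Alb had -3.42, Afp -3.52, Ambp -1.90, Fga -2.31 and Spink1 -7.75, and the other 9 of the 15, apart from Ptp4a1, did not pass the filter on low counts.

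Without the mixed members, an alternative added after the data were seen, 2044 of 6404 genes were called (31.9%; 14.2% higher and 17.7% lower), and the genes with the lowest fold change by the same rule were others, apart from Ptp4a1. The differences from monocytes were not run without these members. Ptp4a1 (-6.56 ± 0.41), Ccl3 (-4.01 ± 0.32) and Ccl4 (-3.72 ± 0.30) came first, then the replication factor Rpa3 (-3.51 ± 0.37) and Zfp36, a factor that destabilises cytokine transcripts (-3.40 ± 0.27). Ptp4a1 and Rpa3 also fell in all other passing barcodes, from 54.2 to 0.817 CPM and from 78.4 to 11.7 CPM. Monocyte-gated barcodes had -6.40 and -2.97 for these genes, and the differing gene tables cannot be told apart from stage. Further down were Nr4a1, an immediate-early nuclear receptor (-2.85 ± 0.28), Cebpb (-2.83 ± 0.44), Hpgd, which degrades prostaglandins (-2.68 ± 0.61), Cxcr4 (-2.40 ± 0.47) and Socs3, an inhibitor of cytokine signals (-2.34 ± 0.42). Zfp36 measured 456, 603, 324, 463 and 404 CPM at E16.5 and 87.1, 36.6, 40.3 and 39.0 CPM at P3 over all members. Agpat3, a phospholipid acyltransferase, and H2-K1 joined the genes with the highest fold change (2.01 ± 0.32 and 1.75 ± 0.25). In monocyte-gated barcodes Zfp36, Nr4a1, Cebpb and Socs3 had -3.43, -3.10, -2.04 and -1.74, and since TrypLE was used at E16.5 only, digestion and stage cannot be told apart.

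Members were compared with monocyte-gated barcodes of the same libraries to see which changes with stage differed between them. The stage effect differed for 168 of 10496 genes (1.6%), 82 with a higher effect in members (0.781%) and 86 with a lower one (0.819%), and the count depended on single libraries. It was 96 without Jag1+/+ replicate 1, 104 without Jag1Ndr/+ replicate 1, 58, 81 and 98 without library B, C or D, and 428 without the shared library. Of the 15 cDC1 genes, 4 had a higher effect in members. Snx22 had a log2 fold change of 2.17 in members and -0.60 in monocytes (difference 2.80, adjusted p = 0.000377), Ppt1 1.94 and -0.09 (difference 2.01, adjusted p = 0.000600), and Naaa 0.66 and -0.92 (difference 1.65, adjusted p = 0.00485). These 3 differences passed the threshold whichever library was left out. Tlr3 was the fourth (difference 1.66, adjusted p = 0.0320), and missed the threshold without Jag1Ndr/Ndr replicate 1, Jag1Ndr/Ndr replicate 2, library A, library B or library D (difference 1.57 to 1.68, adjusted p = 0.0518 to 0.128).

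Outside the cDC1 list, Csf2ra differed by 1.03 (adjusted p = 0.00944) and Cd24a by 0.90 (adjusted p = 0.00587), where Cd24a had -2.12 in monocytes and -1.23 in members. Both passed the threshold with any library left out. The class I genes H2-K1 and H2-D1 differed by 0.81 and 0.72 (adjusted p = 0.0150 and 0.0150); H2-K1 missed the threshold without library B (difference 0.79, adjusted p = 0.0636) and H2-D1 without library B (difference 0.71, adjusted p = 0.0636). Of 12 class II genes, 1 was called, Ctsl, with a lower effect in members (-1.49, adjusted p = 0.0142), which missed the threshold without library B, library C or library D (difference -1.44 to -1.37, adjusted p = 0.0512 to 0.0664). The monocyte gate caps class II UMIs and asks for Csf1r and Ly6c2, so the comparison of these genes is set in part by the gate. Ccl3 and Ccl4 fell in monocytes too (-3.19 and -3.28, differences -0.52 and -0.12, adjusted p = 0.251 and 0.937), as did Notch2 (-1.81, difference 0.32, adjusted p = 0.610). Of the genes with the lowest fold change, Bex1 had -1.31 in monocytes (difference -3.24, adjusted p = 0.0153), which missed the threshold without library A, library B or library C (difference -3.18 to -2.97, adjusted p = 0.0552 to 0.0885).

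**Figure D5:**
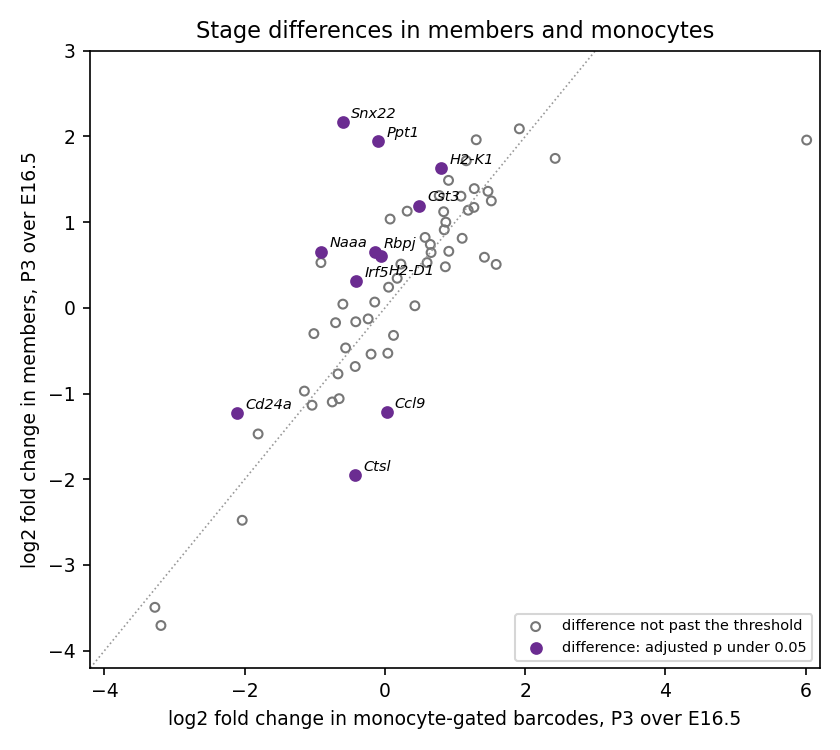
log2 fold change from E16.5 to P3 in members (vertical axis) against that in monocyte-gated barcodes of the same libraries (horizontal axis) for 63 genes of 7 lists, with a dotted line of equal change. The 11 filled points are genes whose change differed between the gates at an adjusted p under 0.05, among them Snx22 and Ppt1, with fold changes of 2.17 and 1.94 in members and -0.60 and -0.09 in monocytes.

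The effect of the Nodder allele was tested at E16.5, where the homozygous label was separate. No gene of 6845 differed between the 2 Jag1Ndr/Ndr libraries and the other 3 in edgeR's quasi-likelihood test (0%; 193 genes at an unadjusted p under 0.05, and 1 gene by DESeq2). The library ranges of 1075 genes did not overlap (15.7%). In simulated libraries of these depths the test recovered 9.28% of genes changed by 1 log2 unit and 74.2% of those changed by 2. Without the filter on low counts, 61 genes were called, among them Hpgd, which is described below and was not called with the filter.

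Values of single genes by genotype are given as descriptions. Hpgd measured 142 and 154 CPM in the Jag1Ndr/Ndr libraries against 35.3, 60.7 and 53.3 CPM in the other 3 (log2 difference 1.64, SE 0.28, adjusted p = 0.695), and at P3 it reached 24.0 CPM (16.3 to 34.1) for library C while D gave 0.887 CPM (0.0225 to 4.94) (95% Poisson intervals, for counting error only), against 39.3 and 2.66 CPM in libraries A and B. Ltf, a granule protein gene of mature neutrophils, measured 0 and 7.77 CPM in the Jag1Ndr/Ndr libraries against 213, 72.6 and 86.6 CPM in the other 3 (adjusted p = 0.695). Elane and Prtn3, granule genes of early myeloid precursors, measured 198 and 733 CPM in the Jag1Ndr/Ndr libraries against 139.7, 135 and 38.6 CPM in the other 3, and 377 and 777 CPM in the Jag1Ndr/Ndr libraries against 235, 269.5 and 113 CPM in the other 3 (adjusted p = 1.00 for both). The summed neutrophil list was 2143 and 14128 CPM in the homozygous libraries and 5039.6 to 19872 CPM in the others, and its part in these values was not tested. Of the 9 tested genes of this list, 3 were higher in the homozygous libraries by their fold changes (median -0.70), with 0 called. The library ranges of 5 of them did not overlap, against 15.7% of all tested genes.

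The cDC1 list had 14 tested genes, all higher in the homozygous libraries by their fold changes, with a median of 0.42 (0.00 over all genes), 0 called and 1 without overlap, where 15.7% of all genes did not overlap. The summed cDC1 list overlapped between the groups. It was 4083 and 3214 CPM in the Jag1Ndr/Ndr libraries against 3052, 3686 and 2237.5 CPM in the other 3, lowest in Jag1Ndr/+ replicate 1. The interferon-stimulated list had 11 of 11 higher with a median of 1.18 and 0 called, which rested on Jag1Ndr/Ndr replicate 1: without it the median was 0.14 over 11 genes. Isg15, a ubiquitin-like interferon product, measured 129 and 17.5 CPM in the Jag1Ndr/Ndr libraries against 11.8, 16.3 and 22.6 CPM in the other 3, high in 1 library alone. Class II genes had a median of 0.40 over 11 tested genes, cDC2 genes -0.14 over 12, Notch genes 0.10 over 5 and cell cycle genes -0.23 over 23, each with 0 called. Among lists of other cell types, the endothelial median was 2.20 over 4 tested genes, the mesenchymal -2.17 over 2 and the plasmacytoid 0.87 over 3. None of these genes was called. The summed endothelial list was 403 CPM in Jag1Ndr/Ndr replicate 1 and 7.77 CPM in replicate 2, against 7.99 to 119 CPM in the others.

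At P3 the label Jag1Ndr/Ndr (library C) and the label Jag1Ndr/+ (library D) had 1 library each, so their values were not tested. Cd74 was at 14334 CPM (14128 to 14542) in C and 7748 CPM (7586 to 7912) in D, the lowest P3 value. Irf7 was at 375 CPM (342 to 410.0) and 176 CPM (152 to 202), and Xcr1 at 137 CPM (118 to 159) and 47.0 CPM (35.2 to 61.5). Clec9a was the other way, at 203 CPM (179 to 229) in C and 282 CPM (252 to 315) in D, although both were gated alike. Irf8 was at 2261 CPM (2179.6 to 2344) and 1760.2 CPM (1684 to 1839), and Notch2 at 24.0 CPM (16.3 to 34.1) and 32.8 CPM (23.1 to 45.2), with overlapping intervals for Notch2. Intervals cover counting error in 1 library and not the spread between animals, and the label of library C is uncertain because its matrix also held library A.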

How the data were processed

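Mouse liver cells were profiled by 10x Genomics sequencing, and the files that the authors deposited give each gene's UMI count in each barcode without scaling. The 10x software version was 3.1.0 at E16.5 and 3.0.2 at P3, per the file headers, with 31053 and 22597 genes, of which 22519 were in both. The submitters' processing notes also list Cell Ranger 2.1.1, R 4.1.2, Seurat and mm10, without roles. The barcode filter behind the matrices is not given in the sources used here. The accompanying barcode and gene lists are deposited text identifiers with no fixed scale and were used only to name rows and columns.

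Barcodes were compared between matrices. At E16.5, 1 matrix stood under both Jag1+/+ replicate 2 and Jag1Ndr/+ replicate 2, and it entered once. At P3, library A came from the label Jag1+/+ replicate 1, B from Jag1+/+ replicate 2, C from Jag1Ndr/Ndr replicate 1 without the 19927 barcodes shared with A, and D from Jag1Ndr/+ replicate 1. The label Jag1Ndr/+ replicate 2 held 15754 barcodes, all in B, and Jag1Ndr/Ndr replicate 2 shared 18105 with A and 16145 with B; neither was used. Passing barcodes had a median of 5325 to 9256 UMIs per library at E16.5 and 2961 to 6235 at P3. No doublets were removed. Scrublet (scanpy 1.11.5) marked 0% to 4.65% of members at E16.5 and 7.5% to 14.1% at P3, and their removal was an alternative.

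UMIs of members were summed per library and tested with edgeR 4.0.16 (quasi-likelihood, TMM scaling, filterByExpr) in R 4.3.3, with Benjamini-Hochberg adjustment over all tested genes and a threshold of 0.05. Members and monocyte-gated barcodes were compared in 1 model with the library as a block. Monocyte-gated barcodes had at least 1 UMI of Csf1r and 2 of Ly6c2, under 5 of class II, C1q under 5, Camp, Ngp and Ltf together under 10, and no Siglech or Cd79a. B cell-gated barcodes had at least 3 UMIs of Cd79a. Shares were compared by exact permutation over libraries (SciPy 1.17.1, NumPy 2.4.6 for the arrays). Members were clustered with Leiden (igraph 0.11.9). On simulated counts the stage test recovered 53.5% of 99 genes changed by 1 log2 unit and 100% of 100 changed by 2, over 6775 genes, with 12 false calls. Figures were drawn with matplotlib 3.10.9.

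Genes were named where they were called, had library ranges that did not overlap, had a mean of at least 50 CPM in the higher stage and more CPM in members than in other passing barcodes. From these the 15 with the largest fold change in each direction were taken, leaving out gate, mitochondrial, immunoglobulin, Gm or Rik and sex-linked genes. List members are given as counts with examples, and some listed genes are not reported here by name. Among others, Xcr1, Clec9a, Flt3, Zbtb46, Itgax, Ctsl, Lgmn, Cxcl9, Naaa, Tlr12, Csf2ra, Zfp36, Nr4a1, Socs3, Agpat3, Hpgd, Ltf, Elane, Prtn3 and Isg15 were singled out after their values were seen. Members, gates and lists were chosen with earlier results of these data known. Alternatives were DESeq2 1.42.0, other scaling, no filter, gates at 3 and 10 UMIs, thinning to 1000 UMIs, a mitochondrial limit of 10%, doublets or mixed members removed, Flt3 or Zbtb46 required, subset gates, each library left out, a replicate block and Xist status. P-values measure the spread between these libraries.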

Additional observations from a re-analysis of the deposited data

Results flagged for a closer look

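Among the members' genes named above, 19 of 190 sets of libraries of 1 stage held 1 library far from the rest, with its gap to the nearest other library over 0.71 of the range of 5 libraries or over 0.829 of the range of 4. These limits give about 1 in 20 sets by chance for independent, normally distributed values. The genes share the same libraries, and some were singled out after their values were seen. The count was therefore not read as an excess over that rate. Of the 19, 10 were at E16.5 and 9 at P3.

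Jag1Ndr/Ndr replicate 1 was the high library for 6 genes at E16.5. Its levels were 5230.3 CPM for the invariant chain gene Cd74, 35.2 CPM for Xcr1, 427 CPM for Naaa, 9.19 CPM for Fndc5, 147 CPM for Irf7 and 16.9 CPM for Cxcl9. Jag1Ndr/+ replicate 1 was the lowest for Irf8 (365 CPM) and the highest for Ccl4 (513 CPM) and Peg3 (93.2 CPM), and the shared library was the highest for Rbpj (127 CPM).

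Library A stood apart for 6 genes at P3. It was high for Klf4 (102 CPM), Cebpb (112 CPM), Zfp36 (87.1 CPM), Rpl9-ps6 (144 CPM) and Dlk1 (10.3 CPM), and low for H2-Eb1 (2028 CPM). It was also counted for Spink1 (0.468 CPM), where it held 1 UMI and the others 0, a gap that rests on that single molecule. Library B was the lowest for Clec12a (79.2 CPM), and library D the highest for Igf2bp1 (10.6 CPM).

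The change with stage differed between members and monocyte-gated barcodes, by the test of that difference, for Snx22 (2.80), Ppt1 (2.01) and Bex1 (-3.24) on the log2 scale.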

How the results depend on the processing

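The 2341 genes called between stages became 2090 by DESeq2, 1472 among members with Flt3 or Zbtb46, 1090 among cDC1-type members, 1866 to 2294 with 1 library left out, and 2590 with the replicate block. Between genotypes 0 genes were called, against 1 by DESeq2, 61 without the filter, 3 at a gate of 3 UMIs, and 0 with a library left out, the replicate block or Xist status. The 168 differences between members and monocytes became 381 without the filter and 58 to 428 with 1 library left out. The member share differed between stages by 0.836 to 1.13 points over the alternatives and by 0.876 to 0.934 with 1 library left out, and between genotypes by -0.125 to 0.0146, the latter without Jag1Ndr/Ndr replicate 2. A gate of 3 UMIs moved the stage difference in shares to 11.02 points for cDC1-type (exact permutation p = 0.0476, unadjusted) and -11.5 for unassigned members (p = 0.0317, unadjusted, exact), and thinning gave -5.45 for the latter (p = 0.0159, unadjusted, exact), a measure near its ceiling, with 90.0% to 100% of members unassigned. The cDC2-type stage difference was -0.306 at a gate of 3 UMIs, -0.0809 without doublets, -0.154 without mixed members and -1.72 to 1.48 with 1 library left out. With thinning the genotype differences were -0.299 for cDC1-type, 0 for cDC2-type and 0.299 for unassigned members, from 0 to 3 cDC1-type barcodes a library, and say nothing of the unthinned difference. For 89 named genes called between stages, 1621 of 1735 results kept direction and call, 113 missed the threshold and 1 reversed (Clec12a, 0.0910 in cDC1-type members). The cause of these moves was not tested. A fit of cDC2-type members was not run, since 3 libraries held none. At E16.5, deviations from the group means correlated at 0.118 to 0.199 between same-numbered libraries, with only 2 numbers. The deviations of the 2 homozygous libraries mirror each other by construction, so no pairing was read from these values. The labels name no shared litter or day, so the block above is not taken as a pairing. Few members per embryo library (35 to 75) limit low genes.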
